A study of Mus musculus with 12 samples.

Results

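The miR-17-92 cluster is a group of microRNAs (miRNAs) that are cut from a single primary transcript on mouse chromosome 14. Its members were taken by their array names and number 8 of the 577 miRNAs on the array: the guide strands mmu-miR-17, mmu-miR-18a, mmu-miR-19a, mmu-miR-20a, mmu-miR-19b and mmu-miR-92a, and the passenger strands mmu-miR-17* and mmu-miR-20a*, written below without the prefix for mouse. They were measured in 4 mouse mammary tumour lines, 67NR, 168FARN, 4TO7 and 4T1, with 3 one-colour Agilent miRNA arrays for each line. All 4 lines are described as wild type, came from spontaneous breast cancers of female Balb/C mice, and received no treatment in the labels. The labels call 4T1 metastatic and 67NR, 168FARN and 4TO7 non-metastatic, and the study uses the lines as a series of steps of metastasis, with 4T1 compared against the others. Step and line cannot be told apart, since each step is represented by a single line. Nothing in the labels tells whether repeats came from separate cultures, and the p-values therefore reflect the spread among these arrays alone, which may be technical. In such bulk RNA, fewer cells with a miRNA and less of it per cell cannot be told apart.

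A miRNA hairpin is cut into a duplex, of which the guide strand is usually kept in the silencing complex and the passenger strand, written with a star, is usually degraded. The transcription factors Myc and E2F switch the cluster on, and the cluster is known as an oncogene of lymphomas and of several solid tumours, among them breast cancer. Its guide strands repress, among others, the death regulator Bim and the cell cycle inhibitor p21. A miRNA finds its targets mainly through its seed, bases 2 to 8, and the 6 guide strands carry 4 different seeds.

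The mature strands are shown to make these seed groups visible, 5′ to 3′ with the seed in capitals, as given by RefSeq for GRCm38.p6, where all 8 members were matched. miR-17 and miR-20a share the seed of the miR-17 family, miR-18a differs from it within the seed, miR-19a and miR-19b share a seed, and miR-92a has that of the miR-25 family.
miR-17: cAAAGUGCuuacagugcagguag
miR-20a: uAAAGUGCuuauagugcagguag
miR-18a: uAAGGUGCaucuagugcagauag
miR-19a: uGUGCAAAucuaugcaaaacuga
miR-19b: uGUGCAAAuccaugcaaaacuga
miR-92a: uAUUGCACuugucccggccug
miR-17*: aCUGCAGUgagggcacuuguag
miR-20a*: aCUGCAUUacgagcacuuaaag
miR-19b and miR-92a are made from 2 loci each, the other being on the X chromosome, and an array of mature strands reads both loci together. The other 6 members have 1 locus.

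Guide and passenger strand of a pair come from the same hairpin, and the hairpins of miR-17 and miR-20a are shown with both strands in capitals, the guide strand first. In GRCm38.p6 they lie on the plus strand at chr14:115043671-115043754 and chr14:115044157-115044263.
mir-17: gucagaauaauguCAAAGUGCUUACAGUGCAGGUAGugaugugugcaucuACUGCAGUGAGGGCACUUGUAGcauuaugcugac
mir-20a: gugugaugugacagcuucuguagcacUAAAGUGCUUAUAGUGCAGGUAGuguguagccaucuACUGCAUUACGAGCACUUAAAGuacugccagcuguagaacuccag

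The 18 probes of the members cover the 3′ part of each strand, 13 to 21 bases of it, between positions 115442915 and 115443718 of chromosome 14 in genome build mm9. The 3′ ends lie at the same spacing as those of the RefSeq strands for 18 of 18 probes. Such short probes can bind near relatives, and the strands closest to miR-17 are shown with the stretch of its longer probe in capitals.
miR-17: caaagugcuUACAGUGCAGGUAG
miR-106a: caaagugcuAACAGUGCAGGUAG
miR-20a: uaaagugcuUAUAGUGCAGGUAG
miR-20b: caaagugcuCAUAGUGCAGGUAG
Counted from the 5′ end of miR-17, miR-106a differs from it by U10A alone. The longer probe covers 14 bases and includes that position, while the shorter covers 13 bases, does not include it, and is listed in the files for both miRNAs. miR-20a differs from miR-17 by C1U and C12U. Over the stretches of the miR-20a probes, miR-17 and miR-20b each had 1 mismatch, and over those of miR-19a and miR-19b each of these had 1 mismatch to the other. For miR-18a, miR-92a, miR-17* and miR-20a* no other mouse miRNA matched with 0 or 1 mismatch. A signal named for miR-17, miR-20a, miR-19a or miR-19b may therefore hold some of its relatives.

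Levels are log2 of the scaled signal of the brightest probe, with a floor of -5.58 below which values have no order. Well above background is the scanner software's own mark, and a line counted as not read where its brightest probe was marked on none of its 3 arrays or lay at the floor on all of them. The test covered the 225 miRNAs that some line had well above background on its 3 arrays, among them 8 of 8 members. The 6 guide strands were well above background on all 12 arrays, and the passenger strands only in some lines.

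The 67NR arrays stood apart from the others in the series as a whole. Across the 225 tested miRNAs, arrays of a line correlated at 0.993 to 1.000, arrays of 168FARN, 4TO7 and 4T1 with each other at 0.837 to 0.965, and 67NR arrays with those of another line at 0.540 to 0.637 (Pearson's r over miRNAs, none of them an independent replicate). The control probes named hur_5 averaged 180 to 207 signal units on the 67NR arrays and 1.25 to 6.36 on the other 9. The scaling signal lay between 358 and 460 units on 67NR arrays and between 600 and 1210 on the rest. One slide held the 3 arrays of 67NR and replicate 1 of 168FARN, and a second slide held the remaining 8. Of 8 epithelial markers only miR-183 exceeded background on every array. In 168FARN, 4TO7 and 4T1 the 7 others, including the miR-200 family, were well above background on no array. In 67NR miR-200c and miR-141 were well above background on some but not all arrays, and the remaining 5 on none. Of 5 mesenchymal markers, 3 were read on all 168FARN arrays and none in 67NR or 4TO7, and their summed signal was 340 to 552 units in 168FARN, -2.89 to 0.295 in 67NR, -4.84 to -0.68 in 4TO7 and 11.3 to 15.9 in 4T1. Of 5 haematopoietic markers miR-142-3p was read in 168FARN only, with summed signals of 42 to 60.9 units there and 11.1 to 18.3 elsewhere, and the 4 others, among them miR-223 and miR-451, were read on no array. Of 2 endothelial markers miR-126-3p was read in 67NR, 4TO7 and 4T1, and miR-126-5p was read on no array. Their summed signal followed the order of the guide strands at its ends. It was 101 to 130 units in 67NR, 40.7 to 52.1 in 4T1, 23.4 to 29.9 in 4TO7 and 2.67 to 5.77 in 168FARN. Of 3 muscle markers miR-206 was read in 168FARN only, and miR-1 and miR-133a were read on no array. The summed signals were 23.4 to 41.6 units in 168FARN and -3.25 to 5.84 elsewhere. The part of these features in the differences from 67NR and 168FARN below was not tested.

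The guide strands of the cluster followed a single order of lines, and miR-17* another. All 6 guide strands were highest in 67NR by a wide margin, intermediate in 4TO7 and 4T1, and lowest in 168FARN. miR-17* was highest in 4TO7 and 4T1 and lowest in 67NR, and miR-20a* was read in 4TO7 and 4T1 but in neither other line. In 67NR the brightest probe of neither was well above background on any array.

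**Figure D1:**
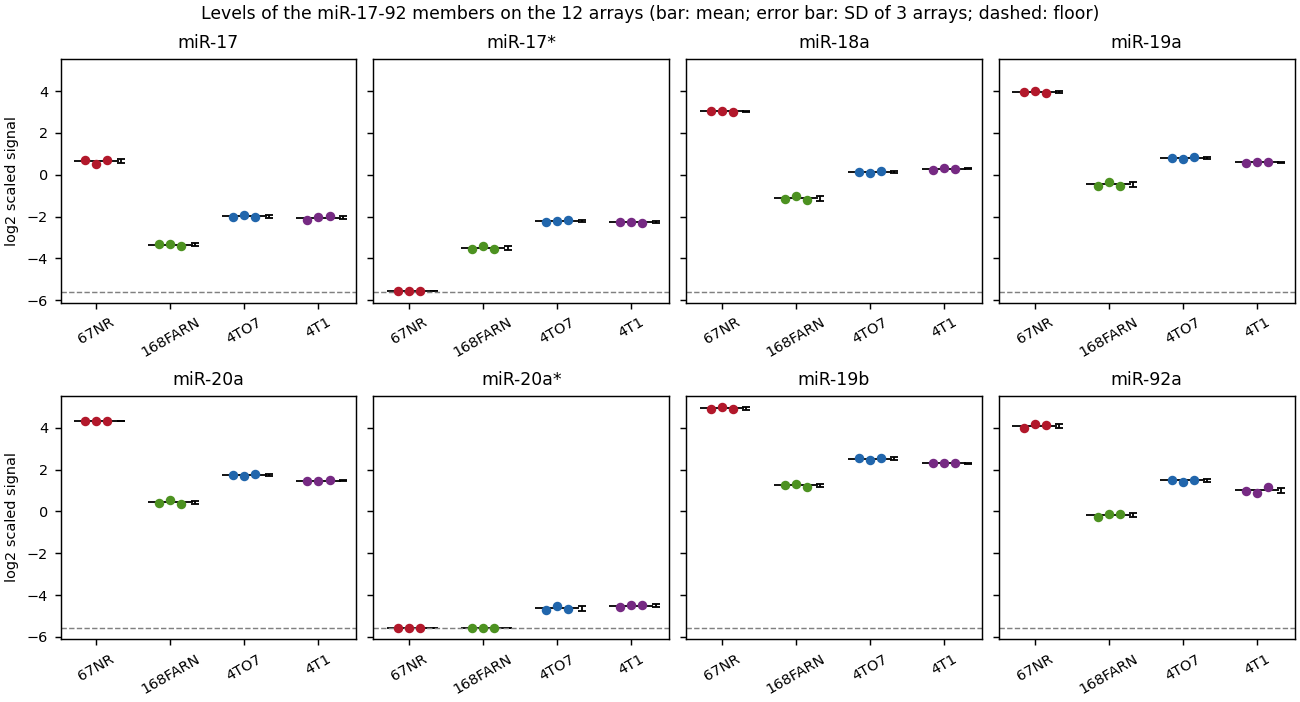
Log2 scaled signal of each of the 8 members on every array, by line, with the mean and SD of 3 arrays and the floor of -5.58 as a dashed line. The 67NR arrays are the highest for all 6 guide strands and lie at the floor for miR-17* and miR-20a*.

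miR-17, the first miRNA of the cluster, read 0.68, 0.53 and 0.71 (log2 level) on the 67NR arrays and -3.30, -3.31 and -3.41 on those of 168FARN. It read -2.01, -1.91 and -2.04 in 4TO7 and -2.15, -2.0 and -1.99 in 4T1. The 67NR arrays were above and the 168FARN arrays below all others, and those of 4TO7 and 4T1 overlapped. miR-17 was 15.8-fold lower in 168FARN than in 67NR (difference -3.98 ± 0.06 (SE, n = 3 arrays per line), adjusted p = 6.69e-14 by limma). It was 6.45-fold lower in 4T1 than in 67NR (adjusted p = 2.29e-12) and 2.45-fold higher in 4T1 than in 168FARN (adjusted p = 3.73e-09).

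miR-20a, which shares the seed of miR-17 and lies further along the same transcript, read 4.32, 4.34 and 4.33 in 67NR and 0.41, 0.52 and 0.35 in 168FARN. It read 1.76, 1.71 and 1.81 in 4TO7 and 1.44, 1.46 and 1.5 in 4T1. No arrays of different lines overlapped. The differences were -3.90 ± 0.04 for 168FARN and -2.86 ± 0.04 for 4T1, each against 67NR, and 1.04 ± 0.04 for 4T1 against 168FARN (adjusted p = 7.13e-15, 1.01e-13 and 1.58e-09).

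miR-19a and miR-19b are the members known to carry much of the cluster's oncogenic effect in lymphoma. miR-19a read 3.95, 4.02 and 3.91 in 67NR and -0.51, -0.32 and -0.52 in 168FARN, while its 4TO7 arrays read 0.79, 0.74 and 0.87, and it read 0.58, 0.63 and 0.60 in 4T1. Its fall from 67NR to 168FARN, 21.3-fold (-4.41 ± 0.06), was the largest among the members. miR-19b read 4.87, 5.0 and 4.88 in 67NR and 1.26, 1.3 and 1.15 in 168FARN, while its 4TO7 arrays read 2.55, 2.45 and 2.56, and it read 2.29, 2.30 and 2.32 in 4T1. Its fall of 12.8-fold (-3.68 ± 0.05) was the smallest among the 6 guide strands. For both miRNAs no arrays of different lines overlapped.

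miR-18a read 3.04, 3.05 and 3.02 in 67NR and -1.16, -1.01 and -1.22 in 168FARN. It read 0.14, 0.07 and 0.20 in 4TO7 and 0.25, 0.31 and 0.30 in 4T1, so that the 4T1 arrays lay above those of 4TO7, unlike the other guide strands. miR-92a, the last member of the transcript, read 3.97, 4.17 and 4.12 in 67NR and -0.29, -0.13 and -0.13 in 168FARN, while its 4TO7 arrays read 1.51, 1.41 and 1.52, and it read 0.96, 0.89 and 1.15 in 4T1. Both were lower in 168FARN than in 67NR, miR-18a by 17.9-fold and miR-92a by 19.3-fold (adjusted p = 1.32e-14 and 2.24e-13).

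Against 67NR, all 6 guide strands were lower in each of the other lines by limma, 12.8 to 21.3-fold in 168FARN, 5.28 to 8.94-fold in 4TO7 and with log2 differences of -3.36 to -2.62 in 4T1. Of all 225 tested miRNAs, 48% were called lower in 168FARN than in 67NR, 48% in 4TO7 and 47.6% in 4T1. The arrays of 67NR did not overlap with those of the other line for 6 of 6 guide strands in each comparison, beside 86.7% (168FARN), 80% (4TO7) and 81.3% (4T1) of all tested miRNAs. The median difference of the guide strands was -4.07 in 168FARN, -2.62 in 4TO7 and -2.81 in 4T1, beside -0.06, -0.15 and -0.05 over all tested miRNAs. Other scalings kept the direction and the call of all 6. Less the median over all tested miRNAs, the differences of the guide strands from 67NR ran from -3.93 to -2.65 for 168FARN, -2.73 to -1.64 for 4TO7 and -2.65 to -1.43 for 4T1 with the 75th percentile of all probes, no scaling, quantile scaling or the normexp background correction. Within the slide that holds 67NR and 168FARN replicate 1 the differences of that line were -4.47 to -3.66, with 6 of 6 called. The split of all calls did move with the scaling, from 90 higher and 108 lower in 168FARN against 67NR to 107 and 72 with no scaling and 50 and 157 with normexp. For 4TO7 against 67NR it moved from 71 and 108 to 47 and 152 with normexp, and for 4T1 against 67NR from 72 and 107 to 104 and 66 with no scaling, 90 and 87 with the percentile of all probes and 39 and 173 with normexp.

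Between the lines other than 67NR, 168FARN held the least of the cluster. All 6 guide strands and miR-17* were called higher in 4T1 than in 168FARN, by 2.06 to 2.67-fold for the guide strands, where 34.2% of the tested miRNAs were called higher. The same 7 members were also called higher in 4TO7 than in 168FARN, by 2.38 to 3.17-fold for the guide strands, with 35.1% called higher and 39.1% lower over all tested miRNAs. miR-20a*, which was tested only because 4TO7 and 4T1 read it, is left out of these counts. Arrays did not overlap for 6 of 6 guide strands in both, beside 76.4% of all tested miRNAs for 4T1 and 72.9% for 4TO7. In 4TO7 against 168FARN the calls split into 79 higher and 88 lower, and into 38 and 127 with no scaling and 101 and 54 with normexp. The medians of the 6 guide strands were 1.13 and 1.31, beside a median of 0 over all tested miRNAs in both comparisons. These 2 comparisons share the 168FARN arrays. miR-18a differed most between 4T1 and 168FARN (1.42 ± 0.05), and miR-92a most between 4TO7 and 168FARN (1.66 ± 0.08). Within the second slide, which holds 168FARN replicates 2 and 3, the guide strands were higher by 1.02 to 1.40 in 4T1 and 1.22 to 1.61 in 4TO7, with 6 of 6 called in each. Without the 67NR arrays in the fit 6 of 6 were called in each as well.

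**Figure D2:**
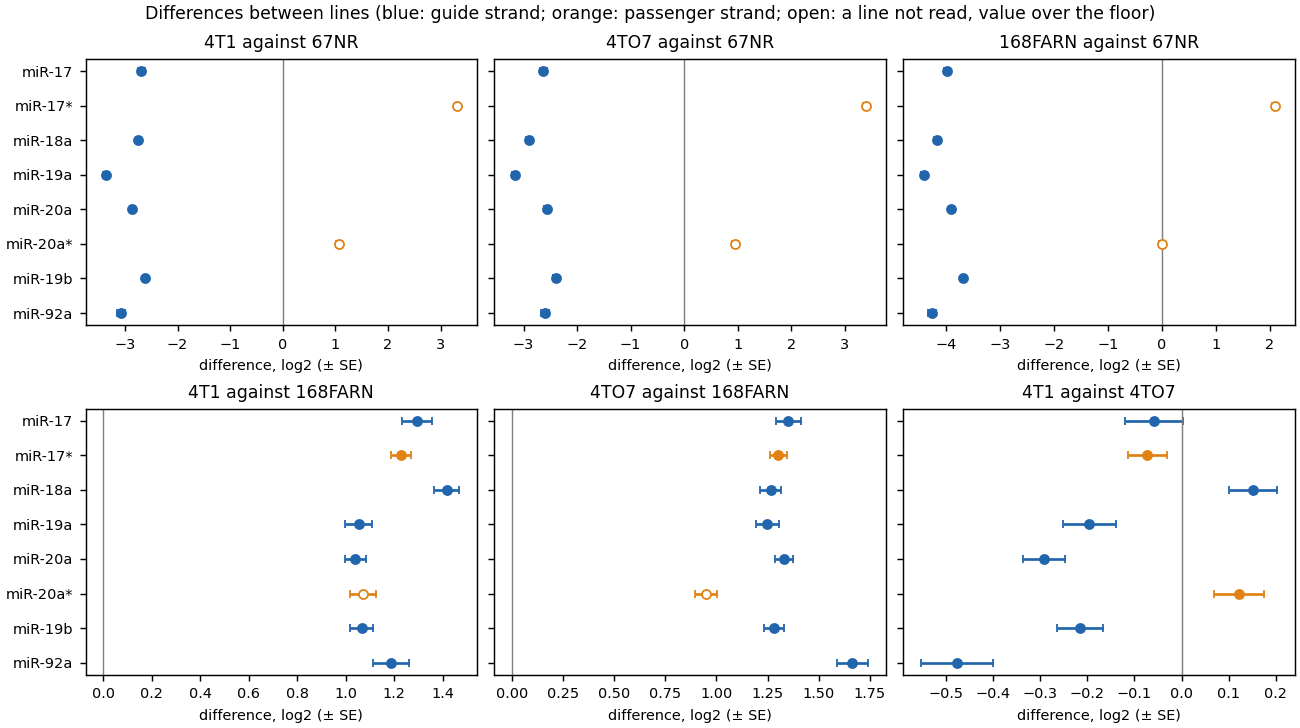
Log2 difference ± SE of each member in the 6 comparisons of 2 lines. Blue guide strands lie left of 0 in the 3 comparisons with 67NR and right of 0 in those with 168FARN, orange passenger strands right of 0 in each of these wherever they were read, and open points are values over the floor.

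4T1 and 4TO7, which are both known to reach the lungs, were close to each other. 4 guide strands were called lower in 4T1, miR-92a by -0.48 ± 0.08, miR-20a by -0.29 ± 0.04, miR-19b by -0.22 ± 0.05 and miR-19a by -0.20 ± 0.06 (adjusted p = 0.00022, 0.000167, 0.00269 and 0.00981). miR-18a was called higher, by 0.15 ± 0.05 (adjusted p = 0.0244). Over all tested miRNAs 35.6% were called lower and 24.9% higher. Arrays did not overlap for 5 of 6 guide strands, beside 67.6% of all tested miRNAs. miR-17 (95% interval of the difference -0.19 to 0.08), miR-17* (-0.16 to 0.02) and miR-20a* (0.01 to 0.24) did not pass the test (adjusted p = 0.481, 0.16 and 0.0665). The calls of this comparison depended on the scaling. With no scaling the difference of miR-92a was 0.24 and those of miR-20a, miR-19b and miR-19a were 0.43, 0.50 and 0.52, above 0 in place of below it. The call of miR-20a was also lost with quantile scaling (-0.02, adjusted p = 0.766) and with the percentile of all probes (-0.01, adjusted p = 1), and that of miR-92a with the latter (-0.20, adjusted p = 0.0552). miR-17 was called lower with normexp (-0.16) and with the software's total signal per miRNA (-0.22). It was called higher with no scaling (0.66, adjusted p = 0.00294) and with the percentile of all probes (0.22, adjusted p = 0.0498). miR-17* was called in the same directions in each of these settings. With quantile scaling miR-19b was called higher (0.16, adjusted p = 0.00066). The median over all tested miRNAs moved from 0 to 0.34 with no scaling, and the calls from 56 higher and 80 lower to 105 and 7. They were 79 and 40 with the percentile of all probes and 30 and 119 with normexp. The call of miR-18a ended when any of 4T1 replicate 2 or 3 or 4TO7 replicate 1 or 2 was left out (adjusted p = 0.0735, 0.0704, 0.0558 and 0.097), and on the second slide alone (adjusted p = 0.0568). Its difference was 0.0055 with quantile scaling and 0.02 with the software's total signal per miRNA. miR-17* passed without 168FARN replicate 2 (adjusted p = 0.0439), and miR-20a* without 4T1 replicate 1 or 4TO7 replicate 2 (adjusted p = 0.0314 and 0.00208).

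Against the mean of the 3 non-metastatic lines, the comparison the labels name, 6 of 6 guide strands were called lower in 4T1 (-0.83 to -0.39). Both passenger strands came out higher, but miR-17* enters at the floor in 67NR, and miR-20a* in 67NR and 168FARN. They were tested only because lines other than 67NR read them, so these values are descriptions only. With normexp that of miR-20a* was -0.24 (adjusted p = 0.00214 by limma). Over all tested miRNAs 59.6% were called lower and 28% higher, and the median was -0.34. For 0 of 8 members did the 4T1 arrays lie apart from all 9 others, beside 17.3% of all tested miRNAs. For each guide strand 67NR was above and 168FARN below 4T1. For miR-17* 4TO7 was above and 168FARN below 4T1, and for miR-20a* the arrays of 4TO7 and 4T1 overlapped. Without the 67NR arrays all 6 guide strands were called higher in 4T1 than the mean of 168FARN and 4TO7, by 0.35 (miR-92a) to 0.78 (miR-18a). With no scaling the 6 differences ran from -0.12 to 0.32, and the calls over all tested miRNAs went from 63 higher and 134 lower to 110 and 66. They were 88 and 110 with quantile scaling, 93 and 98 with the percentile of all probes and 38 and 170 with normexp.

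miR-17* went against its guide in 67NR and with it in the other lines. miR-17*, the other strand of the miR-17 hairpin, had signals of 4.72, 3.99 and 1.14 units on the 67NR arrays and 105, 87.8 and 67.8 on those of 168FARN. It had 127, 135 and 152 units in 4TO7 and 231, 239 and 180 in 4T1. On the scaled log2 scale 67NR was at the floor, 168FARN at -3.49 ± 0.08 (SD, n = 3), 4TO7 at -2.19 ± 0.05 and 4T1 at -2.27 ± 0.03, and the 67NR arrays lay below all others. For the brightest probe, 67NR was entered at the lowest level that each array could read. By that probe miR-17* was at least 5.89-fold higher in 4T1, 6.19-fold in 4TO7 and 2.51-fold in 168FARN than in 67NR. The adjusted p of the differences over the floor were 1.75e-14, 1.23e-14 and 5.64e-13, which may be too small because floored arrays show no spread. miR-17* was also tested only because 168FARN, 4TO7 and 4T1 read it. These p-values, and those against 67NR in the next paragraph, are therefore descriptions only. Of the tested miRNAs 32% were called higher in 4T1 than in 67NR, 31.6% in 4TO7 and 40% in 168FARN.

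A second, dimmer probe of miR-17* was well above background on 1 of the 3 arrays of 67NR, with 11.1 to 14 signal units on the 3 arrays, against 29.5 to 49.1 in 168FARN and 88.1 to 116 in 4T1. By that probe the difference from 67NR was 1.70 for 4T1, 1.74 for 4TO7 and 0.34 for 168FARN (adjusted p = 8.14e-08, 6.28e-08 and 0.0176). With the normexp background correction the difference of 168FARN from 67NR was 0.03 and no longer passed (adjusted p = 0.605), while those of 4T1 (0.85) and 4TO7 (1.05) did. The lower limits by the brightest probe were 2.56 for 4T1, 2.63 for 4TO7 and 1.33 for 168FARN in log2. The values of the second probe and of normexp all lay below them, so these limits hold for that probe and processing alone. The direction of miR-17* in 4T1 and 4TO7 against 67NR held for both probes and for this correction, but its size did not.

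miR-20a*, the other strand of the miR-20a hairpin, was dim in every line. Its signals were -0.26, -0.30 and -0.26 units on the 67NR arrays, at background, and 21.3, 15.5 and 11.6 on those of 168FARN, where 2 of 3 arrays were well above background but the scaled values were at the floor. They were 22.7, 27.1 and 26.5 in 4TO7 and 45.8, 51.5 and 39.9 in 4T1, with scaled levels of -4.63 ± 0.11 and -4.51 ± 0.06. By its brightest probe it was at least 2.10-fold higher in 4T1 and 1.93-fold in 4TO7 than in 168FARN, and at least 1.25-fold and 1.14-fold higher than in 67NR. These differences rest on the floor. With the floor doubled none of the 4 passed. With the normexp correction that of 4T1 against 67NR was -0.42 and was called lower (adjusted p = 0.000122 by limma). That of 4TO7 against 67NR was -0.04 and that of 4T1 against 168FARN 0.06, and neither passed (adjusted p = 0.581 and 0.642). Only that of 4TO7 against 168FARN was still called higher, at 0.43 (adjusted p = 0.000175).

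Guide and passenger strand were also compared within arrays, as the log2 level of the guide less that of the passenger on the same array. No meaning is attached to the size of this value in a single line, since the probes differ. For miR-17 less miR-17* it was 0.16 ± 0.07 (SD, n = 3) in 168FARN, 0.21 ± 0.09 in 4TO7 and 0.22 ± 0.11 in 4T1. These 3 lines were apart by 0.06 (adjusted p = 0.721, exact permutation test over arrays). In 67NR, with miR-17* at the lowest level each array could read, the value was at least 5.32 to 5.61 on the 3 arrays, above all arrays of the other lines. For miR-20a less miR-20a* it was 6.39 ± 0.15 in 4TO7 and 5.97 ± 0.05 in 4T1. It was at least 5.93 to 6.10 on the 168FARN arrays and at least 8.96 to 9.42 on those of 67NR, in neither of which miR-20a* was read. Where a passenger strand is not read, the value moves with the level of the guide alone, and no test over the 4 lines is given for these pairs.

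**Figure D3:**
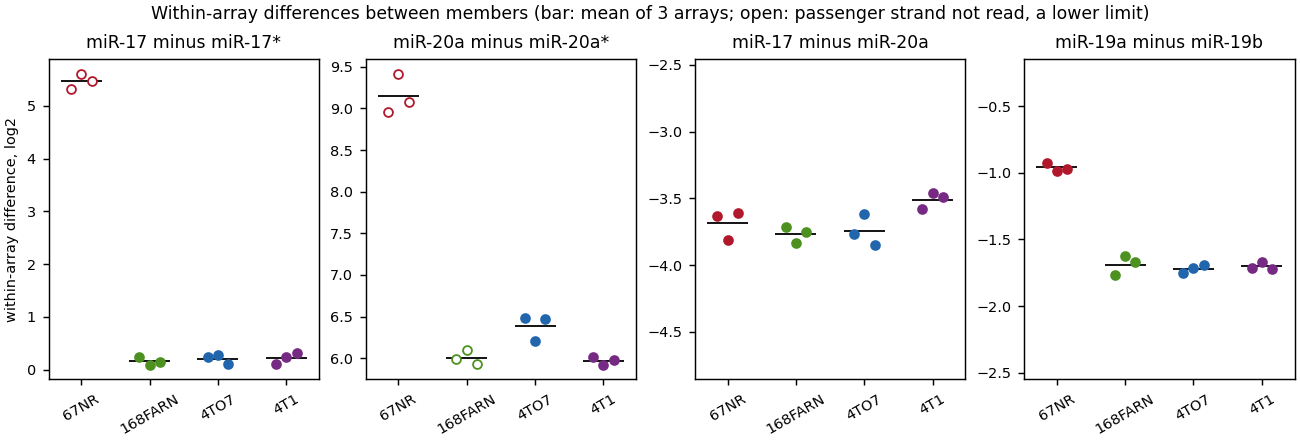
Within-array log2 difference of 4 pairs of members on each array, by line, with the mean of 3 arrays as a bar. Open points, where the passenger strand was not read, are lower limits, and those of 67NR lie above all other points for both pairs of guide and passenger strand, and all lines lie close together for miR-17 less miR-20a.

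Among the guide strands the changes between lines were nearly parallel. Across the 12 arrays every pair of guide strands correlated at 0.988 or more, and across the 9 arrays without 67NR at 0.922 or more. These are descriptions, since the guide strands share arrays, a transcript and, for some, probe sequence. miR-19a and miR-19b, which differ by a single base, changed unequally. Their within-array difference was -0.96 ± 0.03 in 67NR and -1.69 ± 0.07, -1.72 ± 0.03 and -1.70 ± 0.03 in 168FARN, 4TO7 and 4T1, so that miR-19a was relatively higher in 67NR (lines apart by 0.76, exact permutation test, p = 0.0131, adjusted p = 0.0388 over the 4 pairs of guide strands). Without 67NR the lines were apart by 0.03. The lines were apart by 0.25 for miR-17 and miR-20a, 0.27 for miR-17 and miR-18a and 0.42 for miR-17 and miR-92a (p = 0.039, 0.0292 and 0.0194, adjusted p = 0.039, 0.039 and 0.0388, exact permutation test). With p-values adjusted over 6 pairs, the first of these 3 calls was lost in 8 of the 12 fits that leave out an array. The second was lost in 9 and the third in 2, and each was lost without 67NR. That adjustment includes the 2 pairs with a passenger strand at the floor. For miR-17 and miR-92a it gave 0.0291 in place of 0.0388 (exact permutation test), so the losses may be understated.

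**Figure D4:**
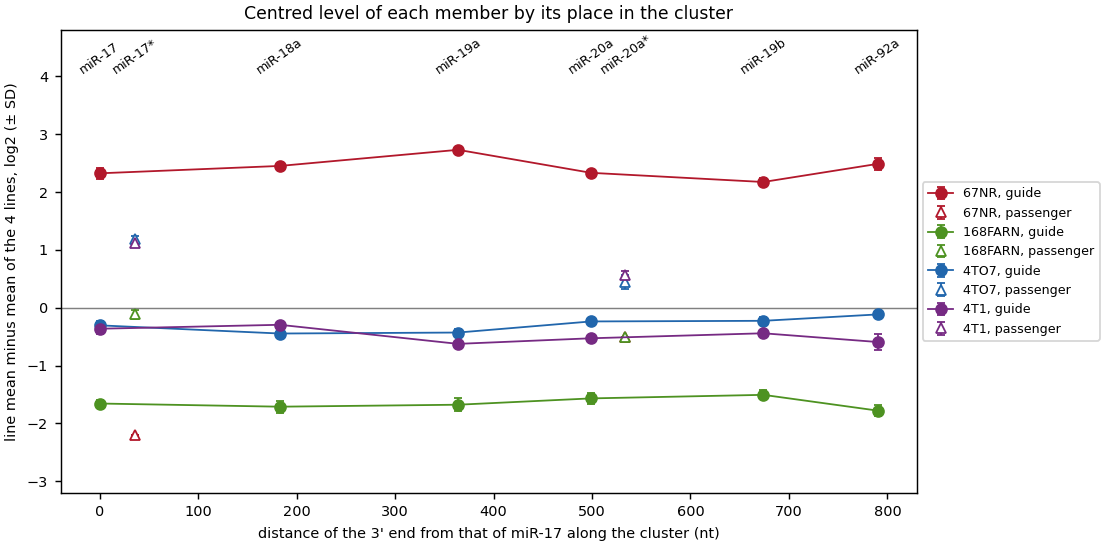
Level of each line less the mean of the 4 lines (log2, ± SD of 3 arrays) for each member, placed by the distance of its 3′ end from that of miR-17. Filled guide strands keep 67NR on top and 168FARN at the bottom over the whole 790 bases, and the open passenger strands beside miR-17 and miR-20a put 67NR at the bottom, level with 168FARN for miR-20a*.

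The second probe of each guide strand gave the same directions. Over the 6 comparisons of 2 lines, the differences of the brightest and the second probe had the same sign for 6 of 6 guide strands each time and lay 0.01 to 0.17 apart. The relation of miR-17* to its guide in 67NR was not shared by miR-18a*, the passenger strand of miR-18a. miR-18a* is on the array but is not among the 8 members. Its level was -1.76 ± 0.07 in 67NR, -4.69 ± 0.18 in 4TO7 and -4.42 ± 0.14 in 4T1, and it lay at the floor in 168FARN. It was 6.31-fold lower in 4T1 than in 67NR and 7.60-fold lower in 4TO7 (adjusted p = 8.31e-11 and 3.06e-11), in the direction of the guide strands and opposite to miR-17*. miR-92a* was well above background on no array, and miR-19a* only on 1, of 67NR.

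The paralogs of the cluster lie on the X chromosome (the miR-106a cluster) and on chromosome 5 (miR-106b, miR-93 and miR-25). Of the 15 names on the list of paralogs and other strands, 13 are on the array and 7 were tested. Against 67NR, 6 of these 7 were called lower in each of 168FARN, 4TO7 and 4T1, with medians of -1.72, -2.12 and -1.89. Over all tested miRNAs 48%, 48% and 47.6% were called lower, with medians of -0.06, -0.15 and -0.05. Of the 7, miR-106b* was the exception, at 0.22 ± 0.15 in 4T1 against 67NR (adjusted p = 0.215). Against 168FARN, 4 of 7 were called higher and 1 lower in 4T1, with a median of 0.12. Over all tested miRNAs 34.2% were called higher and 39.6% lower in that comparison, with a median of 0.

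The X-linked paralogs miR-106a and miR-20b followed the cluster closely, while the chromosome 5 paralogs did so only in part. Of the 91 other miRNAs read on all arrays, miR-106a and miR-20b had the profiles nearest to the mean of the 6 guide strands, at a root mean square distance of 0.0737 and 0.0818 (log2, 12 arrays, centred levels; r = 0.999 and 1.000). miR-106a was 6.74-fold lower in 4T1 than in 67NR and 2.33-fold higher than in 168FARN, and miR-20b 6.78-fold and 2.13-fold. Over the stretches of their probes each had 1 mismatch to a member, miR-106a to miR-17 and miR-20b to miR-20a, and the files list a miR-17 probe for miR-106a as well. The other miRNAs of the miR-106a cluster that were on the array under their own names, miR-18b, miR-20b* and miR-363, were well above background on no array. The share of miR-17 and miR-20a in the signals named miR-106a and miR-20b was not tested.

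The next nearest profiles were those of miR-320 (distance 0.414, r = 0.971), miR-361 (0.542, r = 0.948) and miR-103 (0.561, r = 0.969). miR-93, miR-106b and miR-25 ranked at 20, 21 and 30, with distances of 0.848 to 0.942. They were lower in 4T1 than in 67NR by 3.04, 3.71 and 2.73-fold. Against 168FARN, where the cluster was higher in 4T1, miR-93 differed by 0.12 ± 0.03 and miR-106b by -0.20 ± 0.04 (adjusted p = 0.0103 and 0.00206), and miR-25 by -0.03 ± 0.06, which did not pass (adjusted p = 0.745).

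**Figure D5:**
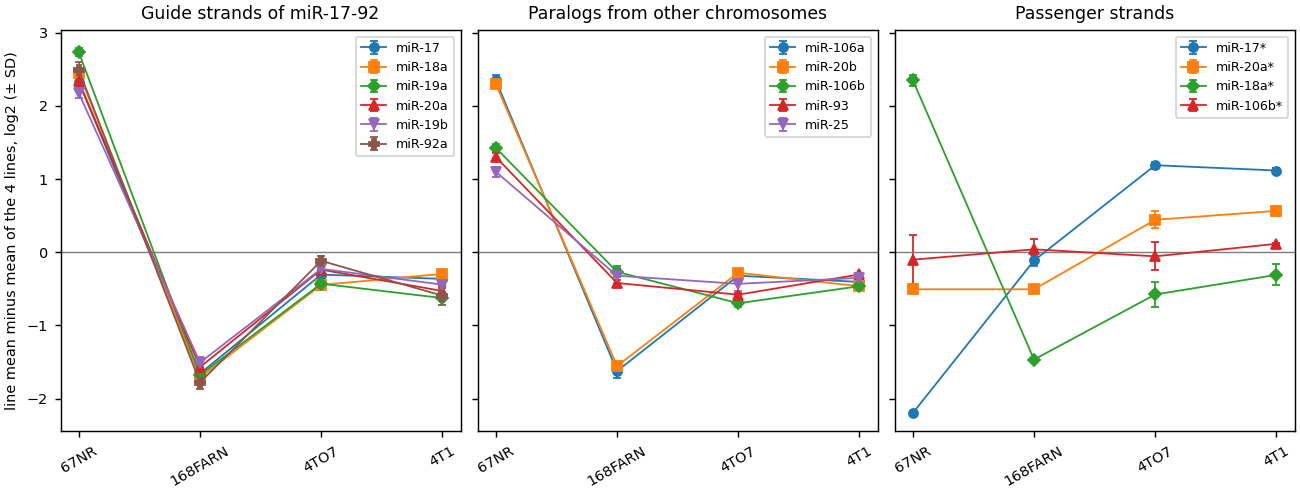
Line mean less the mean of the 4 lines (log2, ± SD of 3 arrays) for the guide strands, the paralogs and the passenger strands. miR-106a and miR-20b overlie the guide strands, and miR-106b, miR-93 and miR-25 are high in 67NR but show no dip in 168FARN. miR-18a* is high in 67NR, where miR-17* lies at the floor. Both are higher in 4TO7 and 4T1 than in 168FARN, where miR-18a* lies at the floor.

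Myc, which switches the cluster on, is known to repress other miRNAs, and a list of 25 of these, of which 24 were tested, was set beside the members. The direction of its members differed between comparisons. In 168FARN against 67NR, where the guide strands fell, 15 were called higher and 8 lower (median 1.07, against -0.06 over all tested miRNAs). Of all tested miRNAs 40% were called higher and 48% lower there. In 4TO7 against 168FARN, where the guide strands were higher, 4 were called higher and 14 lower (median -0.30, against 0). The shares over all tested miRNAs were 35.1% and 39.1%. In 4TO7 against 67NR 11 were called higher and 11 lower, beside shares of 31.6% and 48%. In 4T1 against 67NR 12 were called higher and 11 lower, beside 32% and 47.6% of all tested miRNAs. There let-7i was at 4.83 ± 0.06 and miR-34a at -4.87 ± 0.05. In 4T1 against 168FARN 5 of the list were called higher and 18 lower (median -0.37, against 0 over all tested miRNAs). There 6 of 6 guide strands of the cluster were called higher. Of all tested miRNAs 34.2% were called higher and 39.6% lower. From the list, miR-146a was at -3.54 ± 0.04 and miR-30b at 0.75 ± 0.04. In 4T1 against 4TO7 the counts were 10 and 11, beside 24.9% and 35.6% of all tested miRNAs. There miR-34a was at 1.68 ± 0.05 and let-7b at -0.51 ± 0.08.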

How the data were processed

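The authors' deposited intensity values are processed signals of one-colour Agilent mouse miRNA arrays (100 ng total RNA per array), background-subtracted by Feature Extraction 10.2.1.3 and not scaled between arrays, per the file headers. The series' value table equals them (largest difference 0). The deposited marks for spots well above background, saturated (0 spots) or uneven are flags of the same software. Control spots and 284 to 508 uneven or outlying spots per array were left out, spots of each of 1712 probes averaged, and arrays scaled to their 75th percentile, taken over 170 probes read well above background throughout. A floor of 0.0209 (log2 -5.58) replaced lower values, being the median of the 12 lowest readable values, 1 per array. The probe with the highest mean stood for a miRNA. Per array, 15.2 to 21.1% of probes exceeded background.

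limma 3.58.1 in R 4.3.3 was fitted to 12 arrays and 4 lines with 8 residual degrees of freedom. p-values are two-sided and adjusted by Benjamini-Hochberg over 225 miRNAs in each comparison, with calls at 0.05. Unequal changes were tested by exact permutation of the lines over arrays (369600 labelings, smallest possible p 6.49e-05, one-sided in F). They were adjusted over the 4 pairs of guide strands, and over all 6 pairs in the alternatives, since 2 pairs hold a passenger strand at the floor and have no valid test over 4 lines. Where a line was not read, "at least" folds take it at the lowest level read on each array, or its own level if higher. The fit was tested on simulated data. The members and lists were chosen with earlier results of these data known. All members are named. The nearest profiles are the 5 smallest distances, of the Myc list the outermost passing members were named, and miR-18a* was singled out after its values were seen. Alternatives covered background, scaling, probe choice, filter, floor, slide, replicate block, variance and each array left out. The number of arrays limits the precision.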

Additional observations from a re-analysis of the deposited data

Results flagged for a closer look

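In 4 pairs of guide strands the within-array difference varied between lines (exact permutation test over arrays, adjusted p below 0.05). The largest and the smallest line mean were apart by 0.76 for miR-19a and miR-19b, with 67NR the line apart. They were apart by 0.42 for miR-17 and miR-92a, 0.27 for miR-17 and miR-18a and 0.25 for miR-17 and miR-20a.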

How the results depend on the processing

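The calls of the 6 guide strands against 67NR and against 168FARN kept their direction and call in every alternative run. Of the alternatives run, the filter at all 12 arrays, which tests 97 miRNAs, alone moved the counts of called miRNAs by over 1.5 times, to 83 for 4T1 against the mean, 88, 78 and 71 for 4T1 against 67NR, 168FARN and 4TO7, 92 and 87 for 168FARN and 4TO7 against 67NR and 75 for 4TO7 against 168FARN. It leaves out the passenger strands. Smaller moves were from 166 to 121 with normexp for 4T1 against 168FARN and from 136 to 110 with the floor doubled for 4T1 against 4TO7. The replicate numbers showed no sign of pairing the samples. Same-numbered arrays deviated together at r = -0.78 to 0.51 (median 0.01), and arrays of different numbers at -0.69 to 0.83 (median 0.02). The replicate block gave 134 to 196 calls against 136 to 198 and changed no call of a member.

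For 4T1 against the mean, the differences turned with no scaling for miR-17 (0.22), miR-18a (0.32), miR-19b (0.12) and miR-20a (0.0043). They turned with the 75th percentile of all probes for miR-18a (0.014), with quantile scaling for miR-19b (0.014) and with normexp for miR-20a* (-0.24). Without 67NR they turned for miR-17 (0.62), miR-18a (0.78), miR-19a (0.43), miR-19b (0.42), miR-20a (0.37) and miR-92a (0.35). For 4T1 against 4TO7 they turned with no scaling for miR-17 (0.66), miR-17* (0.65), miR-19a (0.52), miR-19b (0.50), miR-20a (0.43) and miR-92a (0.24). They did so with the 75th percentile of all probes for miR-17 (0.22), miR-17* (0.21), miR-19a (0.085) and miR-19b (0.066), and with quantile scaling for miR-17 (0.030), miR-17* (0.012) and miR-19b (0.16). miR-20a* turned with the gene-level total signal (-0.092) and normexp (-0.37), and with normexp also for 4T1 (-0.42) and 4TO7 (-0.043) against 67NR. The cause was not tested.

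The differences within arrays, of which those with a passenger strand rest on the floor (6.07 and 3.93 over the 4 lines, with no valid test), no longer passed on the second slide alone, which leaves 3 lines and fewer labelings, at 0.10 (miR-17 and miR-17*), 0.41 (miR-20a and miR-20a*), 0.28 (miR-17 and miR-20a), 0.073 (miR-19a and miR-19b), 0.21 (miR-17 and miR-18a) and 0.42 (miR-17 and miR-92a). Without 67NR, an alternative added after seeing the data, they were 0.064, 0.41, 0.25, 0.032, 0.21 and 0.42 in that order. By the second probes, added likewise, miR-17 and miR-20a (0.21) and miR-17 and miR-92a (0.29) no longer passed. Leaving out each array gave 6.03 to 6.12, 3.91 to 3.96, 0.23 to 0.30, 0.74 to 0.77, 0.20 to 0.33 and 0.34 to 0.49 in that order. Signal over background limits miR-20a* in every line and miR-17* in 67NR.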
